A study of Mus musculus with 8 samples.

Results

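The list of H2A.X domains that sets wild-type mouse embryonic stem (ES) cells in serum against wild-type ES cells in 2i medium was described on its 19 autosomes. Members were selected by the mark each domain carries in that list, which assigns it to the serum or the 2i side. Domains whose signed score lay within 0.05 of 0 were left out. This gave 10194 domains, 5984 on the 2i side and 4210 on the serum side, of the 10620 in the list and the 25499 in the 6 lists of the series. Each list was made from a pair of libraries by native chromatin immunoprecipitation and sequencing.

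The 2i library came from wild-type 129S6/C57B6 ES cells grown on gelatin in a commercial 2i medium. The serum cells of the series grew in 15% fetal bovine serum with 1000 units of LIF. Serum wild-type cells enter only through the list and were not analysed here as a sample of their own. Precipitation used 0.5 µg of an anti-H2A.X antibody on chromatin cut to mononucleosomes with MNase. There was 1 library per condition, so no difference between serum and 2i has a replicate check, no p-value is given, and read depth is unknown. The lists hold no expression values against which the cell type could be checked. The other lists used beside it name a DNMT1 KO library from 129S6/C57B6 cells in serum, wild-type 129S6/C57B6 cells in PKCi and SRCi media, and 129/Ola cells in serum with a Tdg KD or TKO genotype and a wild-type control for each. Positions are on the mouse build mm9, and no gene annotation was used here.

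H2A.X is a variant of the core histone H2A that takes its place in a share of nucleosomes. Its tail is phosphorylated around DNA breaks, where the phosphorylated form recruits repair factors. Serum with LIF keeps mouse ES cells in a mixed pluripotent state, whereas 2i medium, which inhibits MEK and GSK3, holds them in a more uniform naive state with low DNA methylation.

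The signed score is the authors' own value per domain and carries no stated unit. It rises toward serum and falls toward 2i, and the name of the list sets which side is which. All 5984 domains of the 2i side had scores below 0, and so did 4209 of the 4210 serum domains. A serum domain is therefore a place where the score leaned less toward 2i than elsewhere, and not one with a score on the serum side of 0. The highest score of a 2i domain was -14.1 and the lowest of a serum domain was -9.42, so the sides did not overlap in score. These marks and scores come from the same pair of libraries and are a description of the list.

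The autosomes fell into a pair of sets that the list treats differently. On chromosomes 1 to 9, X, Y and M the product of score and domain length in kb was a whole number, within 0.02, in all 4256 domains shorter than 100 kb. On chromosomes 10 to 19 it was whole in 199 of 3589, or 5.54%. The other lists that name 2i showed the same split, at 100% against 4.48% with PKCi and 100% against 7.14% with SRCi. The DNMT1, TDG and TKO lists did not, at 5.24% to 10.1% on either set. The step behind this is not given in the sources used here. Values below are therefore given for chromosomes 1 to 5, 7 and 9 and for chromosomes 10 to 19 apart, and chromosomes 6 and 8 are to be read beside the former.

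On the 17 autosomes other than 6 and 8, the 2i side was sparse and made of short domains. Its 4628 domains covered 106 Mb, or 4.82% of these chromosomes, which is also the share of all their 1 kb bins called on that side. The median length was 11 kb, with quartiles of 5 kb and 25 kb. On chromosomes 1 to 5, 7 and 9 the side held 1941 domains and 4.00% of the bins, and on chromosomes 10 to 19 it held 2687 domains and 5.68%. The median length was 11 kb in both sets, so the sets differed in how many domains were listed and not in their typical length.

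Chromosome by chromosome, 2i coverage was low and even within the former set. It was 3.29% on chromosome 7, 3.37% on 5, 3.96% on 9, 4.17% on 3, 4.28% on 1, 4.37% on 2 and 4.43% on 4. On the latter set it began at 3.55% on chromosome 15 and ran through 4.60% on 18, 4.68% on 10, 4.83% on 16, 4.89% on 11, 5.66% on 14, 6.47% on 12, 6.92% on 13 and 7.16% on 17 to 9.61% on 19. Chromosome 15 was the exception among 10 to 19, since the other 9 all lay above every chromosome of the former set. Chromosome 19, the smallest autosome, also had the longest median among the 17, at 16 kb, and chromosome 15 the shortest, at 8 kb.

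Chromosomes 6 and 8 stood apart from all of these. The 2i side covered 68.0% of chromosome 6 with 753 domains and 64.1% of chromosome 8 with 603, or 66.2% of the bins of both. The highest value among their processing neighbours, chromosomes 1 to 5, 7 and 9, was 4.43%. By number, chromosomes 6 and 8 held 1356 of the 5984 autosomal 2i domains, 22.7% (Wilson 95% interval 21.6% to 23.7%). The interval covers counting error only, as if domains were independent, and holds no variation between libraries. By length they held 63.8% of the 292 Mb on the 2i side, while making up 11.4% of the autosomal span. Chromosome copy number was not analysed here.

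**Figure D1:**
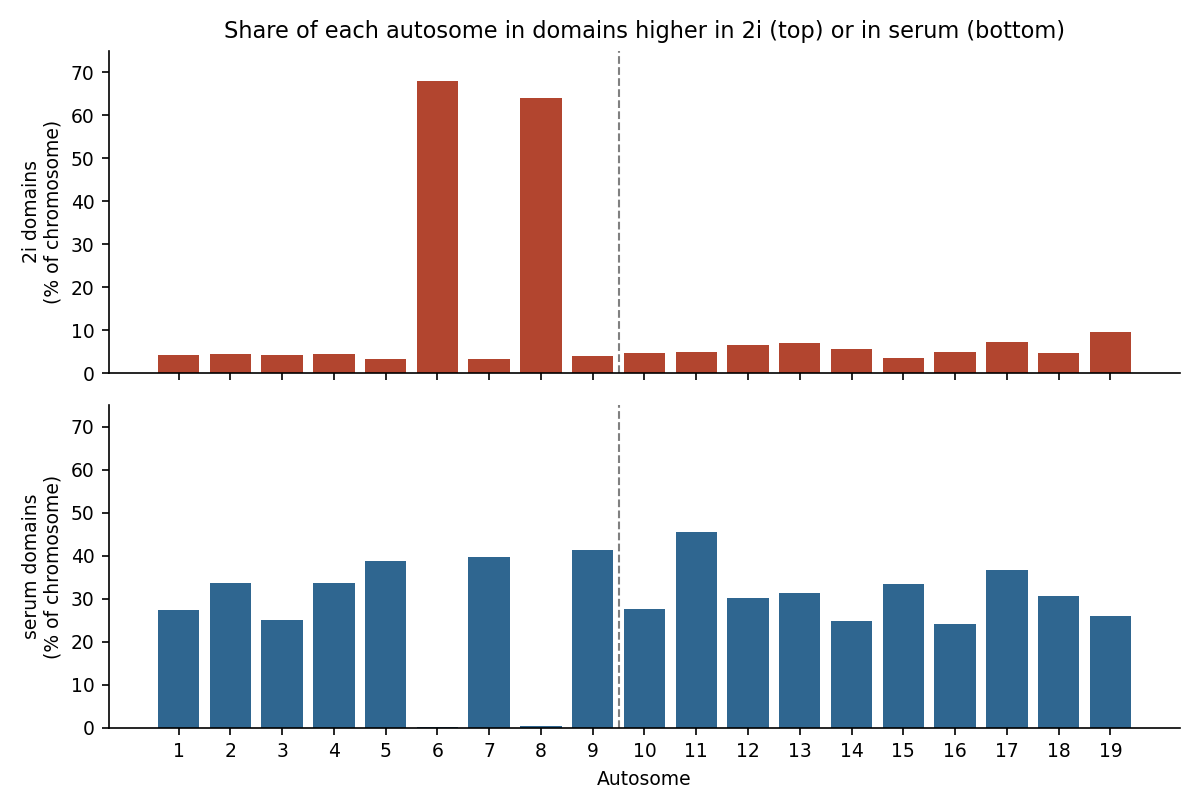
Share of each autosome (percent of its length) in domains of the 2i side (top) and of the serum side (bottom), 1 bar per chromosome from 1 list of 1 library per condition; the dashed line parts chromosomes 1 to 9 from 10 to 19. The 2i bars reach 68.0% on chromosome 6 and 64.1% on chromosome 8 and stay at or under 9.61% elsewhere, and the serum bars are near 0 only on chromosomes 6 and 8.

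The serum side was the mirror of this in placement, with broad domains on the 17 other autosomes and almost none on 6 and 8. It held 4191 domains on the 17, covering 712 Mb or 32.5% of the bins, with a median length of 94 kb and quartiles of 49 kb and 196 kb. On chromosomes 1 to 5, 7 and 9 it covered 33.7% with a median length of 89 kb, and on chromosomes 10 to 19 it covered 31.3% with 98 kb. In relative terms the serum share thus differed less between the sets than the 2i share did.

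Serum coverage varied far more within each set than between them. On chromosomes 1 to 5, 7 and 9 it was 25.1% on chromosome 3, 27.3% on 1, 33.6% on 2, 33.7% on 4, 38.7% on 5, 39.7% on 7 and 41.3% on 9. On 10 to 19 it was 24.2% on chromosome 16, 24.8% on 14, 26.1% on 19, 27.7% on 10, 30.2% on 12, 30.7% on 18, 31.3% on 13, 33.4% on 15, 36.6% on 17 and 45.6% on 11. Chromosome 11 had the highest serum coverage of any autosome and chromosome 16 the lowest of the 17. The value of chromosome 3 includes the block 1 to 3029000, which scored -0.06 and lies just past the near-zero limit. The place of chromosome 16 below chromosome 3 depends on keeping that block. Chromosome 15 had few serum domains, at 1.55 per Mb, but the longest, with a median of 129 kb. Chromosome 18 had the shortest median of the 17, at 73 kb.

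On chromosomes 6 and 8 only 19 serum domains were kept, 4 on chromosome 6 and 15 on chromosome 8. They covered 0.264% of the bins, 0.0829% of chromosome 6 and 0.469% of chromosome 8. Of the 19, 6 had scores above -1, and 13 had scores of -1 or below. The longest, on chromosome 8 at 123011001 to 123103000, spanned 92 kb and scored -8.33. Next was 126060001 to 126138000 on the same chromosome, with 78 kb and -6.83. After it came 122669001 to 122727000, with 58 kb and -8.48. These 3 lay close together in the distal part of chromosome 8. The longest on chromosome 6 was 139611001 to 139662000, at 51 kb with a score of -0.31.

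**Figure D2:**
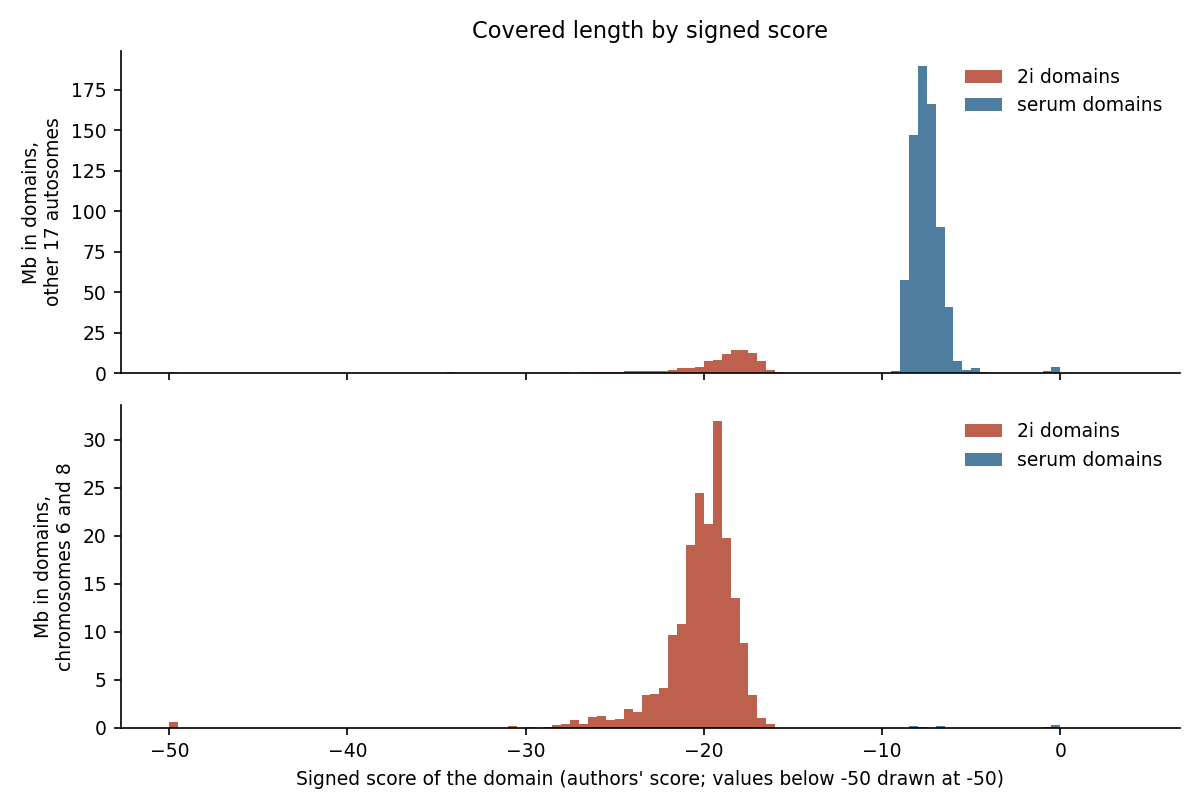
Covered length in Mb (vertical axis, on its own scale in each panel) by the signed score of the domain in steps of 0.5 (horizontal axis, the authors' score), for the other 17 autosomes (top) and chromosomes 6 and 8 (bottom) with the lowest scores gathered in the leftmost step. The 2i and serum domains form separate heaps with nothing between -14.1 and -9.42, the 2i heap lies near the same scores in both panels, and the serum heap is almost absent from the lower one.

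The scores of 2i domains on chromosomes 6 and 8 lay close to those elsewhere, although the covered length was far greater. Their median score was -19.6 on chromosome 6 and -19.7 on chromosome 8, against -20.1 on chromosomes 1 to 5, 7 and 9 and -21.0 on 10 to 19. Weighted by length, the mean was -20.0 on chromosome 6, -20.8 on chromosome 8, -19.9 on chromosomes 1 to 5, 7 and 9 and -20.0 on 10 to 19. These medians pool domains of all lengths, and the score varied with length, so values at matched length follow below.

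Serum scores were tighter. The median was -7.53 on chromosomes 1 to 5, 7 and 9, with quartiles of -8.06 and -6.90, and -7.65 on 10 to 19, with quartiles of -8.12 and -7.10. On the 17 other autosomes the serum medians by chromosome ran from -7.77 on chromosome 13 to -7.28 on chromosome 4, and the 2i medians from -23.3 on chromosome 15 to -19.7 on chromosome 19.

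A second score in the list, divided by the number of 1 kb bins in the domain, never exceeded 1. Its median per chromosome, over domains of all lengths, told the 2 sets of chromosomes apart on the 2i side without overlap. The median per chromosome was 0.849 to 0.873 on chromosomes 1 to 5, 7 and 9 and 0.783 to 0.836 on 10 to 19. It was 0.913 on chromosome 6 and 0.910 on chromosome 8. On the serum side the ranges overlapped, at 0.889 to 0.922 and 0.866 to 0.901. The split on the 2i side varied with length. Medians of the former and latter set were 0.927 and 0.941 for single bins and 0.876 and 0.874 at 2 to 5 kb. At 101 to 500 kb they were 0.915 and 0.798.

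The number of 2i domains per Mb moved with the set in the same way. It ran from 1.53 on chromosome 4 to 1.94 on chromosome 2 in the former set, and from 1.90 on chromosome 15 to 3.15 on chromosome 19 in the latter, so the sets overlapped only through chromosome 15. Over each set as a whole it was 1.73 and 2.52 per Mb. In the list of DNMT1 control against DNMT1 KO, whose score products show no such split, KO domains numbered 0.612 and 0.584 per Mb on the same sets. There the chromosome values overlapped almost fully, at 0.514 to 0.806 and 0.399 to 0.763. The part of the list's processing in the higher number of 2i domains on chromosomes 10 to 19 was not tested.

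**Figure D3:**
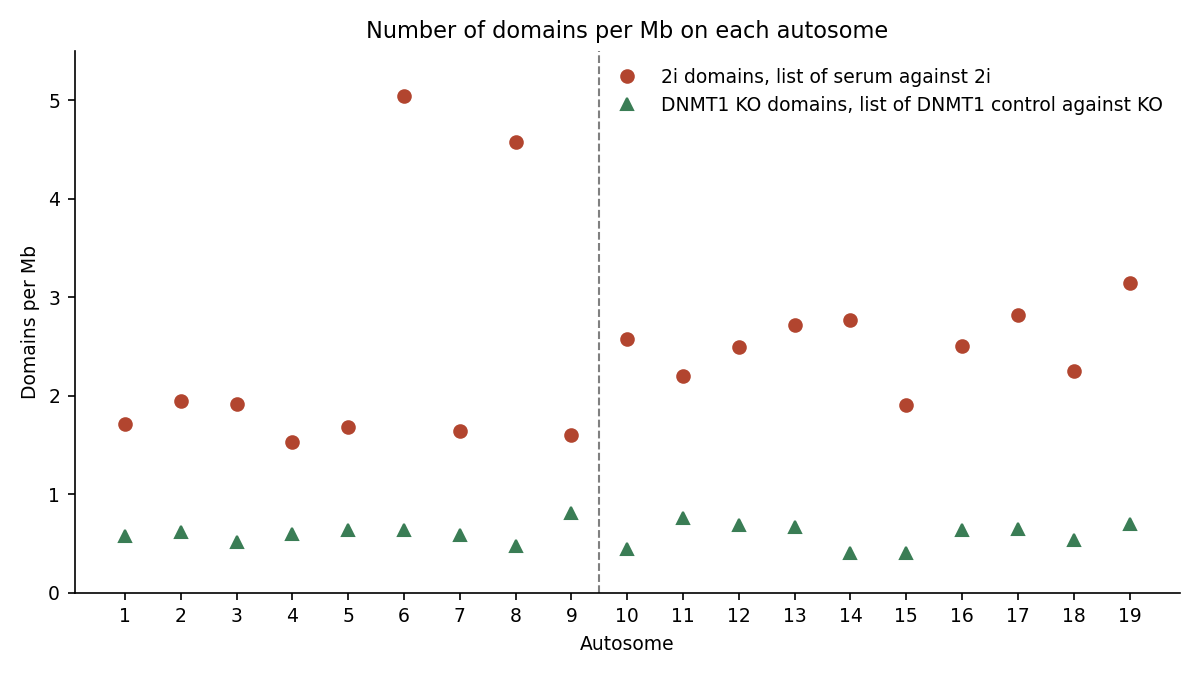
Number of domains per Mb (vertical axis) on each autosome (horizontal axis) for the 2i side of the list of serum against 2i (circles) and for the DNMT1 KO side of its list (triangles); the dashed line parts chromosomes 1 to 9 from 10 to 19. The circles lie between 1.53 and 1.94 on chromosomes 1 to 5, 7 and 9 and between 1.90 and 3.15 on 10 to 19, with 5.04 and 4.58 on chromosomes 6 and 8, while the triangles stay between 0.399 and 0.806.

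Length divided the sides of the list more sharply than number did. On the 17 other autosomes 76 of the 2i domains were a single 1 kb bin, 1171 were 2 to 5 kb long and 1003 were 6 to 10 kb long. A further 1867 were 11 to 50 kb, 352 were 51 to 100 kb and 159 were 101 to 500 kb, and none was longer. The 159 longest made up 3.44% of the domains and 24.4% of the covered bases. On the serum side 8 domains were a single bin, 3 were 2 to 5 kb and 16 were 6 to 10 kb long, whereas 1727 domains of 101 to 500 kb held 52.7% of the bases and 250 longer ones held 31.0%.

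On chromosomes 6 and 8 the 2i domains were longer than 2i domains elsewhere and shorter than serum domains elsewhere. Their median was 46 kb, with quartiles of 18 kb and 128 kb. A total of 337 were 101 to 500 kb long and held 38.2% of the bases, and 84 were longer still and held 44.9%. Domains of 2 to 5 kb, which were 25.3% of the 2i side on the other autosomes, were 4.87% here.

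**Figure D4:**
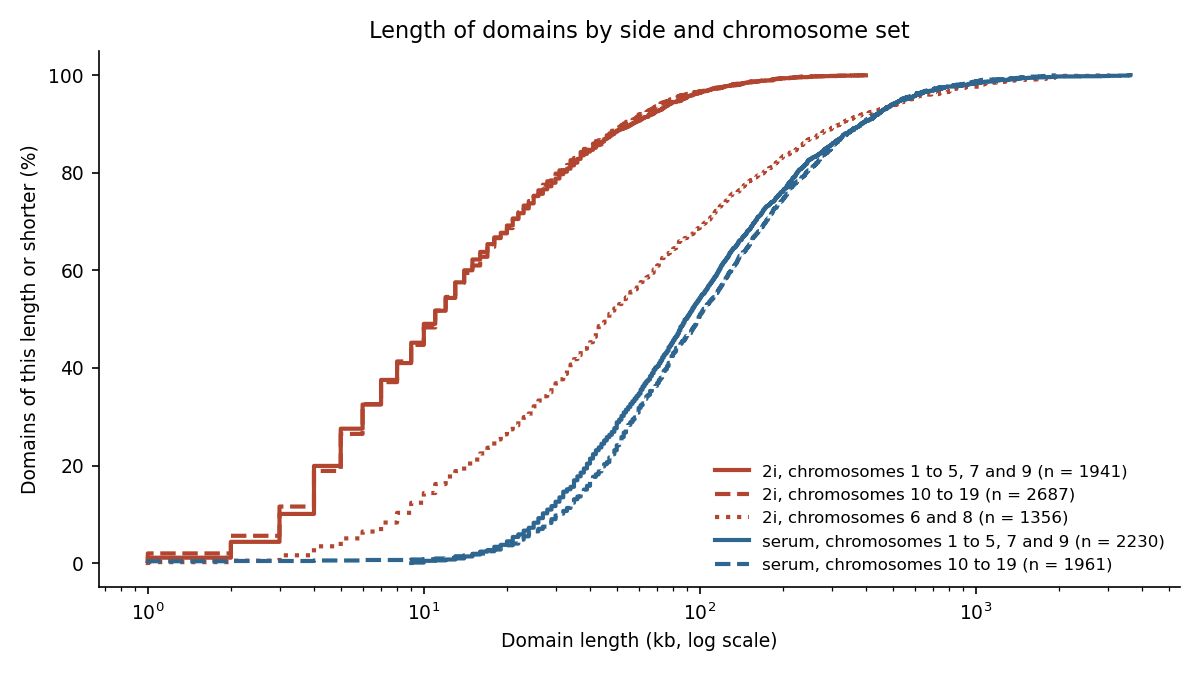
Share of domains at or under a length (vertical axis, percent) against domain length in kb on a log axis, for 2i domains (red) and serum domains (blue) by chromosome set; the 19 serum domains of chromosomes 6 and 8 are not drawn. The 2 red curves of the other autosomes coincide at a median of 11 kb, the dotted curve of chromosomes 6 and 8 lies between them and the blue curves at 46 kb, and the blue curves have medians of 89 kb and 98 kb.

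Short 2i domains had the scores farthest toward 2i. On the 17 other autosomes the median score was -45.9 for single bins, -27.0 at 2 to 5 kb, -21.8 at 6 to 10 kb and -18.7 at 11 to 50 kb. Beyond that it was flat, at -18.1 for 51 to 100 kb and -18.4 for 101 to 500 kb. The order held in both sets of chromosomes, with -25.3 and -28.9 at 2 to 5 kb and -18.4 and -18.3 at 101 to 500 kb. On chromosomes 6 and 8 the same short classes had -42.0, -25.1 and -21.2, and the 84 domains over 500 kb had -19.8. At matched lengths over 10 kb the medians on chromosomes 6 and 8 lay farther toward 2i than on the 17. They were -19.0 and -18.7 at 11 to 50 kb, -19.1 and -18.1 at 51 to 100 kb, and -19.7 and -18.4 at 101 to 500 kb, with no replicate to judge the differences.

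The longest 2i domains outside chromosomes 6 and 8 were under 500 kb. The place on chromosome 12, 116687001 to 117098000, spanned 411 kb with a score of -27.9. That on chromosome 4, 145081001 to 145472000, spanned 391 kb with -26.3. A pair on chromosome 13 followed, 13096001 to 13470000 with 374 kb and -21.3, and 77856001 to 78214000 with 358 kb and -18.1. The fifth, on chromosome 2 at 48678001 to 49031000, spanned 353 kb with -18.5. DNMT1 is the maintenance DNA methyltransferase. In its list 70.3% of the first of these lay in KO domains, 23.0% of the second, 88.5% of the third, 35.8% of the fourth and 13.3% of the fifth. None of the 5 met a DNMT1 control domain. Of all bins of the 17 autosomes 3.65% lay in KO domains and 44.3% in DNMT1 control domains. Whether the DNMT1 control is the serum library of the 2i list is not given in the sources used here, so these shares are values side by side and no evidence that the lists agree.

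The same 5 places divided in the other lists, where TDG control domains hold 0.282% of the bins of the 17 autosomes. In the TDG list 47.0% of the place on chromosome 12, 22.5% of that on chromosome 4 and 60.2% of the proximal one on chromosome 13 lay in TDG control domains, against 0% for the distal one and 2.55% for that on chromosome 2. TDG is a DNA glycosylase that removes oxidised methylcytosine, and the control is a wild-type library. In the lists of 2i against PKCi and SRCi, which name 2i as well and may share its library, the first 3 lay in 2i domains over 41.4% to 96.8% of their length, beside 0.282% and 0.289% of the bins of the 17 autosomes. The others met no domain of either list.

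On chromosomes 6 and 8 the longest were of another order. Chromosome 6, 105443001 to 108505000, reached 3.06 Mb with a score of -19.4, and chromosome 6, 43886001 to 46628000, reached 2.74 Mb with -20.2. On chromosome 8 the leaders were 50926001 to 53008000, at 2.08 Mb and -20.9, and 38160001 to 40196000, at 2.04 Mb and -21.3. In the DNMT1 list these 4 places lay in control domains over 37.2% to 82.0% of their length and in KO domains over 0% to 2.58%. DNMT1 control domains cover 41.3% of chromosome 6 and 49.4% of chromosome 8 as a whole. Of these 4, both places on chromosome 6 lay under the share of their chromosome, and both on chromosome 8, at 82.0% and 63.6%, above it, with no test. The fifth by length, chromosome 6, 109664001 to 111618000, spanned 1.95 Mb with a score of -19.8. It lay in control domains over 78.0% of its length, above the share of chromosome 6. The longest places on chromosome 6 thus lay on either side of that share.

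On the 17 other autosomes the scores farthest toward 2i belonged mostly to places of a few kb. They were chromosome 9, 3038001 to 3039000, with -183, chromosome 12, 68159001 to 68161000, with -177, chromosome 11, 3000001 to 3102000, with -143, chromosome 9, 35111001 to 35114000, with -142, and chromosome 12, 3106001 to 3111000, with -120. Of these 5, 3 lie near 3 Mb on their chromosome, and the one on chromosome 11 is 102 kb long. All 5 met DNMT1 KO domains, which hold 3.65% of the bins of the 17 autosomes, and all 5 met TKO domains, which hold 0.405%. On chromosome 8 a pair of places beside each other, 19641001 to 19803000 and 19853001 to 20038000, scored -87.6 and -133. A 50 kb stretch parts them, listed on the serum side with a score of -0.20.

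The longest serum domains reached several Mb on chromosomes 4, 5 and 2. The leader, on chromosome 4 at 151231001 to 154867000, spanned 3.64 Mb with a score of -6.38. On chromosome 5 the stretch 111816001 to 115371000 spanned 3.56 Mb with -6.51, and 116170001 to 119013000, the fifth by length, 2.84 Mb with -7.31. On chromosome 2 the stretch 168044001 to 171362000 spanned 3.32 Mb with -7.18. In the TDG list these 4 lay in TDG KD domains over 83.4% to 100% of their length, beside 25.3% of all bins of the 17 autosomes. The shares of these places count KD domains of any score, while the 25.3% leaves out those within 0.05 of 0. At the stretches on chromosome 5 the KD score was -0.041 and -0.029, so the values are not of the same set of domains. In the DNMT1 list, whose control may be the same serum library, the 4 stretches lay in control domains over 82.7% to 96.6%, beside 44.3% of all bins. The fourth by length, chromosome 3, 1 to 3029000, scored -0.06 and is of another kind. It lies just past the limit of 0.05 and begins at the first base, as do 8 of the domains left out.

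Domains near a score of 0 need to be kept apart from the rest of the serum side. The limit of 0.05 removed 23 domains, all on the serum side, of which 20 lay on autosomes and spanned 37.0 Mb. The farthest from 0 among them scored 0.0238 in size, and the closest kept domain 0.060. Of the 20, 18 lay on chromosomes 1 to 9 and 8 began at the first base of the chromosome. Another 25 autosomal serum domains were kept with scores above -1, of which 13 were 49 to 52 kb long and 1 lay on chromosomes 10 to 19. That single one, chromosome 14, 42238001 to 42239000, was also the only kept domain with a score above 0, at 3.77. The domains ranked farthest toward serum were thus mostly such places. They include chromosome 4, 60761001 to 60811000, and chromosome 7, 113122001 to 113172000, both 50 kb long with -0.06, and chromosome 7, 66952001 to 67002000, with -0.08.

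Much of the genome was on neither side. Leaving the near-zero domains aside, 61.4% of the 17 other autosomes lay in no domain, at 59.9% on chromosomes 1 to 5, 7 and 9 and 63.0% on 10 to 19. The near-zero domains spanned 27.2 Mb on the former and 0.002 Mb on the latter, so much of this difference comes from them. Kept domains of either side covered 37.7% and 37.0% in turn. The share in no domain was 29.8% on chromosome 6 and 30.3% on chromosome 8, where near-zero domains spanned 3.10 Mb and 6.74 Mb. The stretches between domains had a median length of 78 kb on the 17 and 35 kb on chromosomes 6 and 8. The longest on chromosomes 6 and 8 was chromosome 6, 113688001 to 114453000, at 765 kb, and on chromosomes 1 to 5, 7 and 9 it was chromosome 4, 75662001 to 79372000, at 3710 kb. On 10 to 19 it was chromosome 14, 1 to 4285000, at 4285 kb, which begins at the first base and is in no listed domain.

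On the 17 other autosomes the sides were interleaved. Of successive pairs of domains, 40.5% joined a 2i with a serum domain, 32.2% joined 2i domains and 27.3% serum domains. Mixed pairs were the closest, with a median gap of 52 kb, against 105 kb between 2i domains and 72 kb between serum domains. In 521 mixed pairs, 14.6%, the domains touched with no bin between them. No pair of the same side touched, as such domains would form 1 domain. The order of these gaps is therefore in part set by how domains are defined. Of the 2i domains with a neighbour on each side, 22.8% lay between serum domains on both sides, 31.5% had 1 serum neighbour and 45.6% had none.

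The sets of chromosomes differed here too. 2i domains with no serum neighbour made up 37.6% on chromosomes 1 to 5, 7 and 9 and 51.4% on 10 to 19. The longest run of 2i domains with no serum domain among them was 52 on chromosome 16, 57391001 to 76030000, and in the former set 30 on chromosome 1, 140940001 to 150376000. On chromosome 6 a run of 337 reached from 79857001 to 139611000. Gaps between successive 2i domains on chromosomes 6 and 8 had a median of 34 kb, with quartiles of 19 kb and 70 kb.

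Coverage was then read in 5 Mb windows counted from the first base. In the 431 full windows of the 17 other autosomes, 2i coverage had a median of 3.78%, with quartiles of 2.07% and 6.22%. Only 5 windows exceeded 20%, and none exceeded 50%. Serum coverage of the same windows had a median of 27.3%, with quartiles of 10.7% and 50.9%, and exceeded 50% in 111 windows. Serum coverage was above 2i coverage in 368 of the 431. On chromosomes 6 and 8 it was above in none of the 55 windows, and 2i coverage exceeded 50% in 42.

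The 3 windows richest in 2i domains held serum domains as well. Chromosome 4, 145000001 to 150000000, was covered at 36.6% by 15 domains of the 2i side with a median score of -26.8, and at 44.0% by serum domains. Chromosome 17, 20000001 to 25000000, had 28.1% in 32 domains of the 2i side and 23.2% in serum domains. Chromosome 12, 115000001 to 120000000, had 25.7% and 30.3%. A window could thus be rich in both.

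The windows fullest of serum domains were nearly free of 2i domains. Chromosome 4, 150000001 to 155000000, lies next to the window with the highest 2i coverage of the 17 autosomes and had 95.0% serum and 0% 2i coverage. Chromosome 2, 165000001 to 170000000, had 94.9% and 0%, and chromosome 5, 115000001 to 120000000, had 93.8% and 0.32%. Chromosome 12, 25000001 to 30000000, also had 0% on the 2i side beside 81.8% on the serum side. When the 431 windows were ordered by serum coverage and divided into 4 groups of nearly equal size, median 2i coverage was 4.02%, 4.02%, 4.20% and 2.15% from the lowest to the highest. The last group was the lowest in both sets of chromosomes, at 1.42% and 3.14%. The sides exclude each other within a bin, so a window filled by one has less room for the other.

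**Figure D5:**
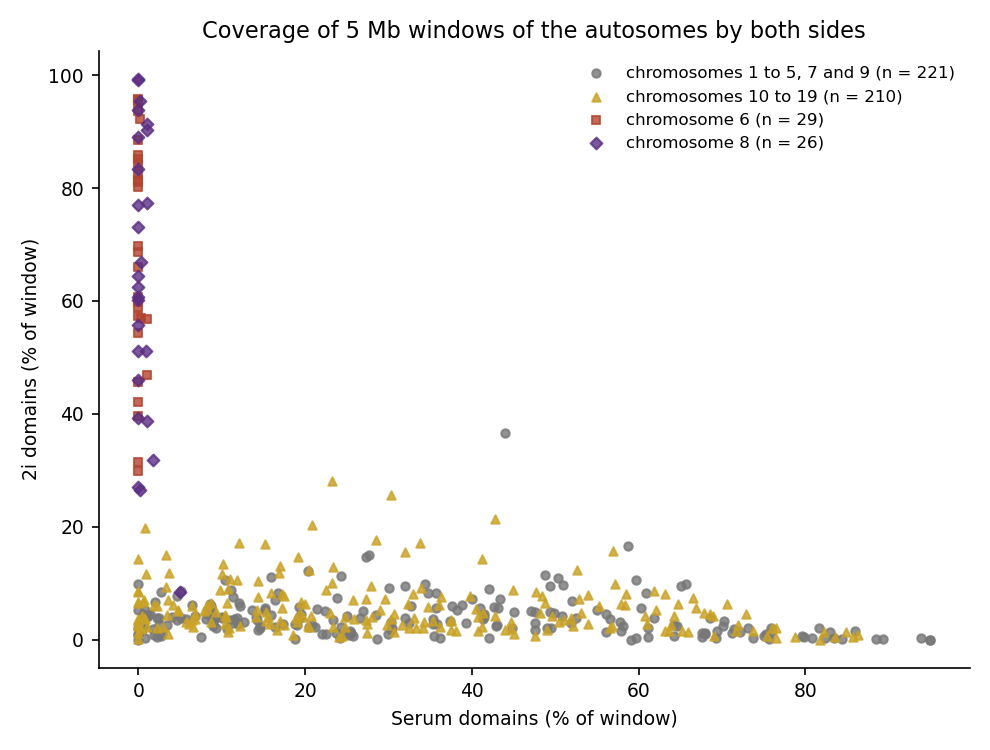
Coverage of 5 Mb windows by 2i domains (vertical axis, percent) against coverage by serum domains (horizontal axis, percent), 1 point per full window, by chromosome set. Windows of chromosomes 6 and 8 stand along the vertical axis with serum coverage at or under 4.98%, and those of the other autosomes lie along the horizontal one with 2i coverage at or under 36.6%.

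Within chromosomes 6 and 8 the 2i coverage was far from even. On chromosome 6 the 29 windows ran from 30.0% to 95.8%, with a median of 68.6%. The highest was 105000001 to 110000000, and the lowest beyond the first window, which holds a near-zero block, was 50000001 to 55000000 with 31.6% in 34 domains of at most 176 kb. On chromosome 8 the 26 windows ran from 8.52% to 99.3%, with a median of 63.5%. The windows at 50000001 to 55000000 and 100000001 to 105000000 were nearly filled, at 99.3% and 99.2%, by 4 and 5 domains. The window 120000001 to 125000000 had only 8.52%, in 19 domains of at most 79 kb. It was also the window of chromosomes 6 and 8 with the most serum coverage, at 4.98%.

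At the distal end of the 17 other autosomes the serum side took more of the last 5 Mb, 47.8%, than of the inner part, 32.9%. The difference was larger on chromosomes 1 to 5, 7 and 9, at 62.0% against 33.8%, while chromosomes 10 to 19 had 37.9% against 31.9%. 2i coverage of the last 5 Mb was 2.40% and 6.82% in turn. On chromosomes 6 and 8 2i coverage of the last 5 Mb was 49.7% and 50.7%, below the 70.0% and 65.4% of their inner parts. At the proximal end, read as the 5 Mb after the first 3 Mb, serum coverage was 25.2% on the 17, below the inner part. It was 14.8% on chromosomes 1 to 5, 7 and 9, but 32.5% on 10 to 19, close to their inner part. Proximal 2i coverage of chromosomes 6 and 8 was 72.9% and 85.2%, above their inner parts.

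In the other lists that name 2i, chromosomes 6 and 8 held most of the 2i side as well, and since the library may be shared these are values side by side. Against PKCi, a medium with a protein kinase C inhibitor, 2i domains covered 51.0% of chromosome 6 and 57.1% of chromosome 8, and 0.282% of the 17 other autosomes. Against SRCi, a medium with a Src kinase inhibitor and CHIR99021, they covered 58.3%, 62.5% and 0.289%. The sparse sides of the lists without 2i had low coverage on these chromosomes too. DNMT1 KO domains covered 3.91% of chromosome 6 and 2.13% of chromosome 8, against 3.65% of the 17, and TDG control domains 0.207% and 0.153%, against 0.282%. TKO domains covered 0.136% and 0.595%, against 0.405%, so on chromosome 8 they lay above their level elsewhere. The broad sides differed in 2 of these pairs. TKO control domains covered 46.8% and 35.5%, against 25.9% of the 17. Kept TDG KD domains covered 32.2% and 34.5%, against 25.3%. The KD scores at the long stretches of chromosome 5 named above, -0.041 and -0.029, lay within the near-zero limit. The part of that limit in the KD difference was not tested.

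The TDG and TKO pairs come from 129/Ola cells and name controls of their own, so bases in common with them can be given for the 17 other autosomes. TDG control domains covered 0.282% of these chromosomes, and they held 3.46% of the bases of 2i domains and 0.0395% of those of serum domains. Read from the other list, 59.1% of TDG control bases lay in 2i domains, which cover 4.82% of the span. Kept TDG KD domains covered 25.3% and held 6.11% of 2i bases and 56.1% of serum bases. KD domains within the near-zero limit are not counted in these values. KD scores at the long serum stretches of chromosome 5 lay within that limit, so it does not remove empty blocks alone. For KD domains of any score these values are lower bounds. TKO domains covered 0.405% and held 2.21% of 2i bases and 0.272% of serum bases. TKO control domains covered 25.9% and held 15.6% of 2i bases and 25.0% of serum bases. Serum bases thus lay in the kept TDG KD domains more often than the chromosomes at large and in TKO control domains about as often. No test of these shares was made.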

How the data were processed

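The submitters' processing notes name Bowtie2 2.0.6 and the mouse build mm9. The authors deposited 1 list of domains for each pair of libraries, on a 1 kb grid with no header. Both score columns are scores made by the authors; which program called the domains, and with what settings or depth scaling, is not given in the sources used here. No test was run, since serum and 2i have 1 library each, and read depth is unknown.

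Domains with a signed score within 0.05 of 0 were left out, and 406 domains on X, Y and M were not part of the description. The limit also holds for coverage and shared bases of the other lists, but not for the shares of named places in them. Numbers, lengths, scores, gaps and coverage were computed per side and chromosome with Python 3.11.15, pandas 2.3.3 and scipy 1.17.1. Coverage is relative to the span of a chromosome as the 6 lists reach it. Coordinates are on mm9 and counted from 1. Gene names and sequences were not used, because the annotation at hand is of another build. Named regions were the 5 longest domains and the 5 with the score farthest toward their side, per side and chromosome set, and the 3 windows of 5 Mb with the most coverage of each side and with the least 2i coverage; examples are printed. Members, lists and rules were chosen with earlier results of these data known. The coverage, merging and neighbour steps were tested on simulated data. The effect of 5 other settings is given in the closing section.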

Additional observations from a re-analysis of the deposited data

How the results depend on the processing

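Counts were taken as moved when they changed by over 1.5 times, and coverage when it left the 95% binomial interval of its bins, which is narrow; by this 19 values moved and 23 did not, with no test. Among the latter, the 4628 domains of the 2i side on the 17 autosomes became 3733 with domains of at least 5 kb, and 3786 and 5514 when the density of chromosomes 1 to 5, 7 and 9 or of 10 to 19 was scaled to all 17. Keeping the 50% of domains with the score farthest toward their side lowers every value by construction: 2i coverage went from 4.82% to 1.13% on the 17 autosomes and from 66.2% to 25.8% on chromosomes 6 and 8, serum coverage from 32.5% to 15.9% and from 0.264% to 0.192%, and the domains on the 17 from 4628 to 2454 (2i) and from 4191 to 2089 (serum). No autosomal 2i domain scored above -14.1, so the settings of no limit and of 0.5 around 0 could not change any 2i value. Those 2i values are among the 23 that did not move and say nothing on robustness. With no limit around 0, serum coverage was 33.7% on the 17 and 3.76% on chromosomes 6 and 8. The added length on chromosomes 6 and 8 is 9.84 Mb of near-zero blocks. With a limit of 0.5 serum coverage was 32.3% and 0.175%. With domains of at least 5 kb, 2i coverage of the 17 was 4.69%, and merging within 10 kb gave 66.4% on chromosomes 6 and 8. The remaining alternatives were chosen after seeing the data. Without the near-zero blocks in the span, 2i coverage was 4.88% and 68.6%, and serum coverage of the 17 was 32.9%. On chromosomes 1 to 5, 7 and 9 alone, 2i coverage was 4.00% and serum coverage 33.7%; on 10 to 19 they were 5.68% and 31.3%. The cause was not tested. No paired analysis was possible because serum and 2i have 1 library each. The limits set by depth could not be measured, since the lists hold no read totals.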

Other observations

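Outside the autosomes the list was lopsided. On X the serum side covered 91.4% with 231 kept domains and a median score of -7.00, and the 2i side covered 1.50% with 132 domains and a median of -24.2. The serum score of X is close to that of autosomal serum domains, while its coverage is above that of every autosome. On Y 19 serum domains and 20 domains of the 2i side were kept, with median scores of -5.84 and -29.1. The mitochondrial chromosome was a single 2i domain with a score of -34.7.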
